A study of Tupaia belangeri with 15 samples.

Results

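The neuregulins NRG1, NRG2, NRG3 and NRG4 and the receptors EGFR, ERBB2, ERBB3 and ERBB4 were followed through the retina of the tree shrew (TS, Tupaia belangeri). The 8 genes were taken by symbol from the 83605 features of the deposited annotation as the neuregulins and the ErbB receptors, with earlier results of these data known. Nuclei had been isolated from 15 frozen retinas, 5 each labelled Infancy, Mature and Senile, and sequenced with the droplet-based 10x Genomics single cell 3′ platform. The files hold raw counts of unique molecular identifiers (UMIs), the molecules counted per gene and nucleus, with 13429873 to 58734300 UMIs per library. No genotype or treatment is labelled in any group, and all animals were of the same species. The senile animals came from another institute than the infant and mature TS, so stage and source cannot be told apart in any comparison with senile TS.

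Neuregulins are ligands with an EGF-like domain, most of them made as membrane-bound precursors and released by proteases. NRG1 and NRG2 bind ERBB3 and ERBB4, whereas NRG3 and NRG4 bind ERBB4, and EGFR takes EGF and its relatives instead. ERBB2 has no ligand of its own and works as the partner of the others, while ERBB3 has a weak kinase and signals through a partner. In neural tissue these ligands and receptors are best known for the growth of glia, the placement of interneurons and the maturation of synapses.

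Of 120437 barcodes, 111825 passed the filters and were not called doublets, and 101267 of these lay in clusters that could be named from marker genes. There were 15338 cones, 1022 rods, 31518 bipolar cells (BCs), 1328 horizontal cells (HCs), 35619 amacrine cells (ACs), 5669 retinal ganglion cells (RGCs), 8200 Müller cells, 1222 astrocytes and 818 microglia. The members and the other genes of their pathway had been kept out of the genes used for clustering. No rods were named in Senile 1, no starburst ACs in Senile 3 and no astrocytes in Mature 4. Of 118622 distinct barcodes, 1793 were found in more than 1 library. Levels below are CPM, the UMIs of a gene scaled to 1000000 UMIs of all nuclei of a class in a retina, with the SD over retinas. The annotation gives no lengths used here, so levels were compared between classes and stages but not between genes.

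Among the receptors, ERBB2 was listed at 0 and ERBB3 was near the floor of the data. ERBB2 had 0 UMIs in all 15 libraries. Of 17253 features with a plain symbol, 2311 were likewise at 0, among them EEF1A1, a translation factor that every cell uses. The 0 of ERBB2 is therefore given as listed, and nothing about expression was read from it. ERBB3 held 103 UMIs in all libraries together and passed the filter on low counts in no class. Of its 87 UMIs in the nuclei kept, 17 lay in astrocytes, which made up 1.10% of these nuclei, and its level there was 4.71 ± 5.64 CPM (SD, n = 14), between 0 and 20.1 CPM. In every other class the mean level of ERBB3 was at most 0.337 CPM, the value of Müller cells. Astrocytes were above Müller cells in 9 of 14 retinas by 1.45 ± 1.66 on the log2(CPM + 1) scale (SD; 2-sided exact permutation by sign flips within retinas, p = 0.00684 and 0.0255 when adjusted over 56 comparisons of neighbouring classes). The call was lost with a pseudocount of 0.1 CPM (adjusted p = 0.109), without Mature 1 or Mature 3 (adjusted p = 0.051 for both) and with single nuclei gated by markers (adjusted p = 0.0563, against rods). Here and below, neighbouring classes were found from the mean levels of the same retinas, and the p-values do not account for that choice.

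The remaining 6 members were detected in every library. Their totals over the series were 448834 UMIs for ERBB4, 103316 for NRG3, 100205 for NRG2, 33056 for NRG1, 16271 for EGFR and 1949 for NRG4. Each had its own order of classes, and the plot of the members by class shows these orders retina by retina.

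**Figure D1:**
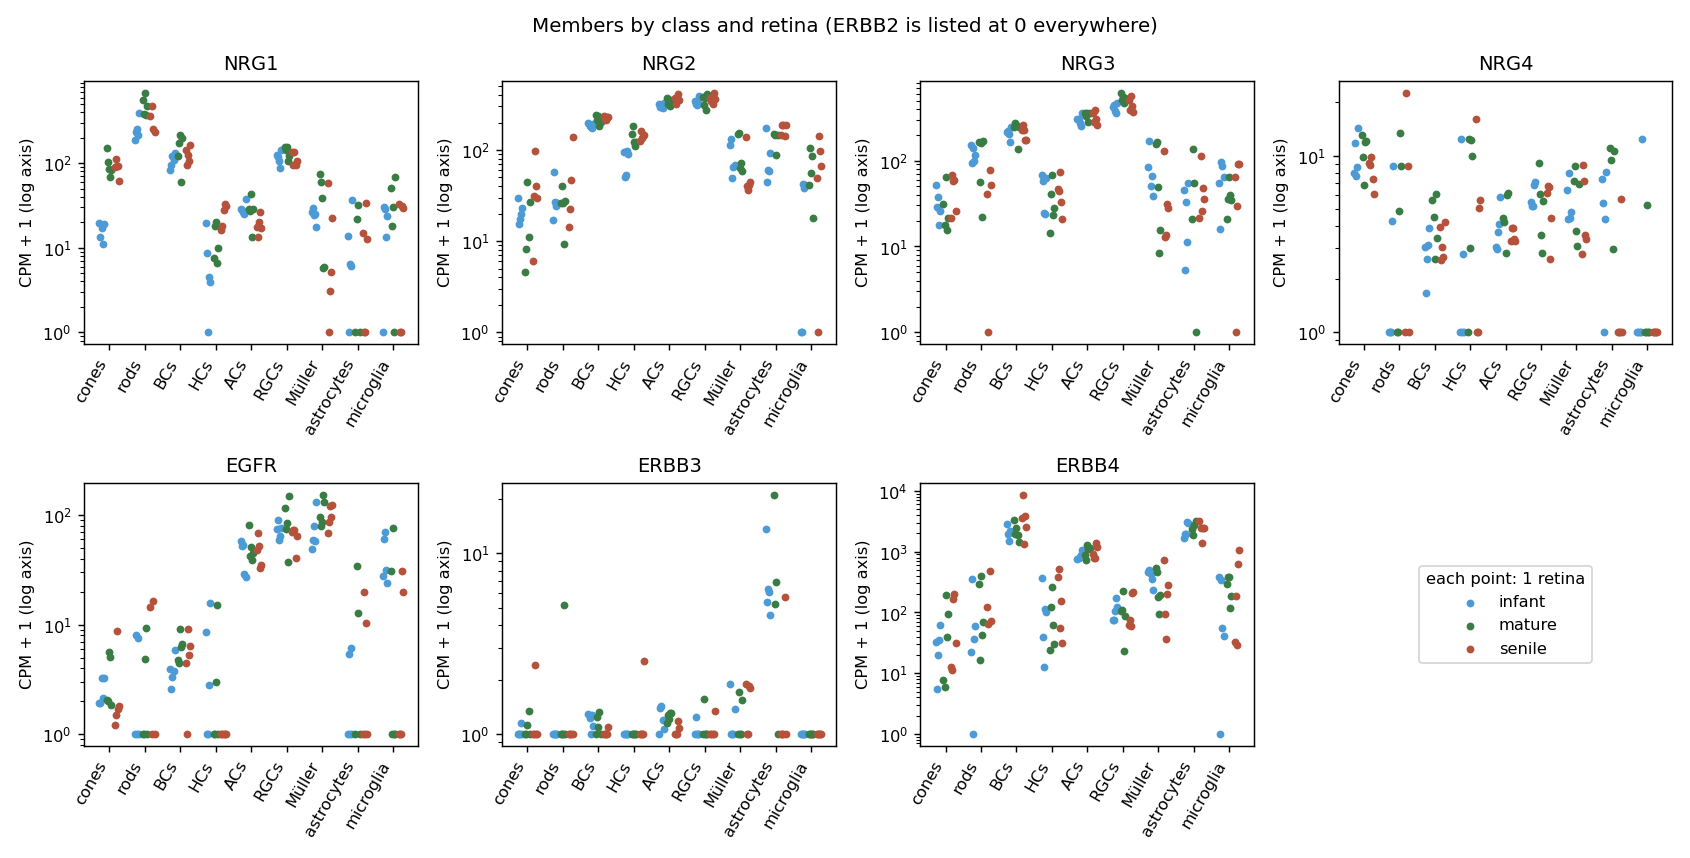
Level of each member per retina and class, as CPM + 1 on a log axis; each point is 1 retina with at least 10 nuclei of the class, coloured by stage, and a value of 1 on the axis stands for 0 UMIs. NRG1 was highest in rods, NRG2 and NRG3 in RGCs and ACs, NRG4 in cones, EGFR in Müller cells and RGCs, and ERBB4 in BCs and astrocytes. The place of BCs for ERBB4 rests on 1 cluster in each retina. A strict check of leading genes left it unnamed in 12 of 15 retinas, and BCs then had 767 CPM, below astrocytes and ACs. Infant cones sit apart from mature and senile cones in the NRG1 panel.

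NRG1, the founding neuregulin, was highest in rods at 362 ± 145 CPM (SD, n = 14). BCs followed at 129 ± 43.3 CPM and RGCs at 121 ± 21.8 CPM (both n = 15), and the latter 2 did not differ beyond their spread (p = 0.774). Rods exceeded BCs in 14 of 14 retinas by 1.48 ± 0.56 on the log2 scale (exact permutation within retinas, p = 0.000122, the smallest that 14 retinas allow; adjusted p = 0.00076). Cones were next at 67.4 ± 43.4 CPM, and the width of that spread came from the stages. Müller cells, ACs, microglia, HCs and astrocytes had means from 12.1 to 25.6 CPM, and no neighbouring pair among these 5 classes differed beyond the spread.

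In cones, NRG1 rose between infancy and maturity and stayed at the higher level in senile TS. The 5 infant retinas had 18.8, 12.4, 16.0, 10.2 and 17.9 CPM of NRG1 in cones. The 5 mature retinas had 151, 104, 85.1, 67.6 and 83.4 CPM, and the 5 senile retinas 88.2, 113, 92.0, 91.3 and 60.8 CPM. No infant retina reached the lowest mature or senile retina, whereas mature and senile retinas overlapped throughout. The values rest on 274 UMIs of NRG1 in infant, 2686 in mature and 1706 in senile cones.

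Fitted with edgeR over all 14459 features tested in cones, NRG1 was 6.43-fold higher in mature than in infant TS, a log2 fold change of 2.69 with a standard error of 0.25 (quasi-likelihood test, adjusted p = 4.38e-05). Senile TS were 5.46-fold above infant TS (log2 fold change 2.45, standard error 0.25, adjusted p = 2.94e-05). Between senile and mature TS the log2 fold change was -0.24 with a standard error of 0.23 (adjusted p = 0.91). In cones, 1.07% of all features were called between mature and infant TS and 1.31% between senile and infant TS, most of them higher in the later stage (0.982% and 1.17% of all features). The call on NRG1 held under every alternative tried for it, with adjusted p between 2.62e-21 and 0.000243 across both comparisons.

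**Figure D2:**
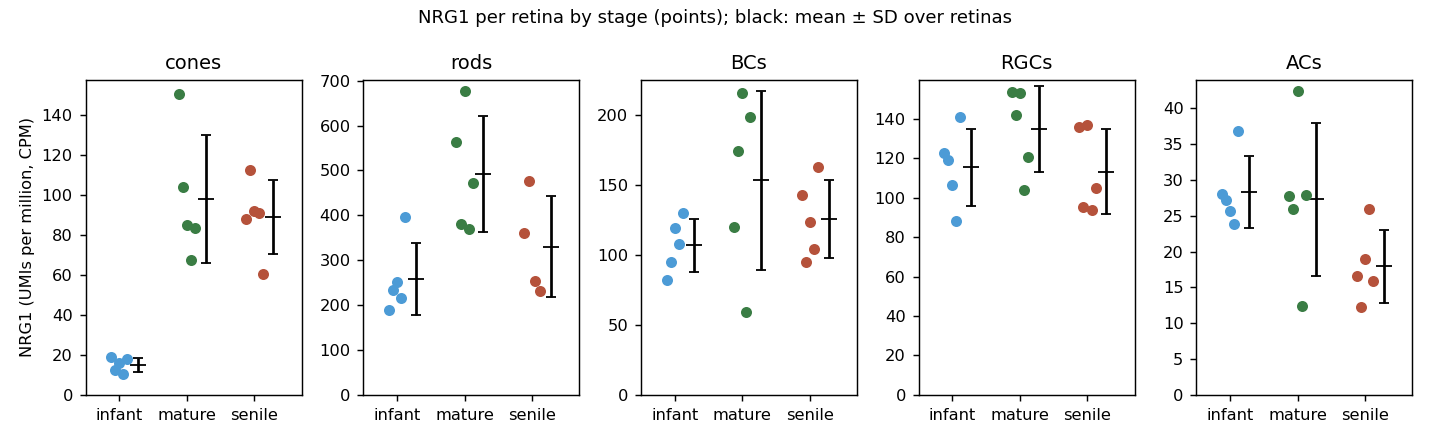
NRG1 in cones, rods, BCs, RGCs and ACs, in CPM on linear axes that start at 0, by stage; each point is 1 retina and the black bars are the mean and SD over the retinas of a stage. Infant cones lie between 10.2 and 18.8 CPM, below all mature and senile cones, while the stages overlap in the other 4 classes.

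The change in cones was larger than in 5 of the 8 other classes. When the difference between cones and another class was taken within each retina and the stage labels were permuted, the mature-to-infant change of NRG1 was larger in cones than in rods by 1.66, than in BCs by 2.20, than in RGCs by 2.38, than in Müller cells by 2.71 and than in ACs by 2.73 on the log2(CPM + 1) scale. Each of these 5 differences had an exact permutation p of 0.00794, the smallest that 5 against 5 retinas allow, and an adjusted p of 0.0127 over 16 comparisons. The senile-to-infant change gave 2.14 for rods, 2.27 for BCs, 2.52 for RGCs, 3.15 for ACs and 4.21 for Müller cells, with the same adjusted p. The value for Müller cells takes in a fall of NRG1 by 1.72 there, which rests on low counts. Unthinned, 0.0% to 10.0% of senile Müller nuclei held a UMI of NRG1. For the same contrast in Müller cells edgeR gave a log2 fold change of -0.37 with a standard error of 0.82, which did not pass. In all, 10 of the 16 comparisons passed, and those with HCs, astrocytes and microglia did not. The number that passed depended on settings chosen after seeing the data: it was 15 with doublets kept and, with a pseudocount of 10 CPM, all 16, those with HCs included. A pseudocount of 10 CPM is close to the level of NRG1 in HCs and lessens their change more than that of cones. It therefore cannot decide whether cones and HCs differ. NRG1 in HCs was 6.57 ± 7.32 CPM in infant, 11.5 ± 6.20 CPM in mature and 24.5 ± 7.89 CPM in senile TS (SD, n = 5 each), from 10, 29 and 36 UMIs, too few to pass the filter on low counts. On the log2(CPM + 1) scale mature HCs were 1.18 and senile HCs 2.29 above infant HCs, beside 2.60 and 2.49 in cones. The differences between cones and HCs were 1.42 and 0.20 (exact permutation p = 0.111 and 0.81; adjusted p = 0.137 and 0.81). The differences were 3.20 and 2.81 for astrocytes (exact permutation, adjusted p = 0.127 for both) and 2.04 and 3.13 for microglia (adjusted p = 0.195 and 0.145).

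The rise was seen across clusters of cones and across nuclei. Cones fell into at least 2 clusters of 10 or more nuclei in 3 infant, 4 mature and 5 senile retinas. The highest of the infant clusters had 31.6 CPM of NRG1, and the lowest of the mature and senile clusters had 36.2 and 45.8 CPM. After each nucleus was thinned to 1000 UMIs, 1.65% ± 0.82 of infant cones held a UMI of NRG1, against 7.88% ± 4.03 of mature and 8.26% ± 2.24 of senile cones (SD, n = 5 each). Both differences had an exact permutation p of 0.00794. Unthinned, the shares were 3.88% to 12.03%, 24.9% to 48.5% and 16.4% to 26.5%, at median depths of 2607 to 8803, 2839 to 11514 and 1539 to 5946 UMIs per cone. Thinning left out 37 infant, 61 mature and 420 senile cones with fewer UMIs. In ACs of the same infant retinas the thinned share was 2.97% ± 0.56, above that in infant cones.

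The files carry 2 Cell Ranger versions in their headers, and the stages were spread over both. Under version 6.1.2, NRG1 in cones was 12.4 to 18.8 CPM in 3 infant, 104 to 151 CPM in 2 mature and 88.2 to 113 CPM in 2 senile retinas. Under 7.0.1 it was 10.2 to 17.9 CPM in 2 infant, 67.6 to 85.1 CPM in 3 mature and 60.8 to 92.0 CPM in 3 senile retinas, so infant retinas lay below all others under both versions, whereas mature and senile retinas overlapped under both. RNA of other classes in the cone nuclei was followed by the summed level of their fixed markers. Rod markers, 9 detected of 12 with PDE6G and CNGA1 among those at 0, summed to 156 to 216 CPM in infant, 126 to 173 CPM in mature and 101 to 232 CPM in senile cones. BC markers, 11 of 12 with CABP5 at 0, summed to 101 to 342, 93.6 to 912 and 66.5 to 2043 CPM, or 0.557% to 1.87%, 0.541% to 4.38% and 0.532% to 8.46% of their level in BCs. RGC markers, 10 of 11 with POU4F2 at 0, summed to 46.2 to 303, 94.7 to 232 and 177 to 350 CPM. The BC list reached higher values in some mature and senile retinas, and each list overlapped between infant and mature TS. The part of RNA from other classes in the NRG1 of cones was not tested.

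In rods, NRG1 was 258 ± 81.0 CPM in infant (n = 5), 493 ± 130 CPM in mature (n = 5) and 330 ± 112 CPM in senile TS (n = 4). Infant rods ranged from 189 to 397 CPM and mature rods from 371 to 677 CPM, so that 1 infant retina lay within the mature range. The log2 fold change from infant to mature rods was 0.88 with a standard error of 0.23 and did not pass the threshold (edgeR, adjusted p = 0.16). It passed when features with low counts were kept (adjusted p = 0.0365) and when Infancy 5, the highest infant retina, was left out (adjusted p = 0.0467). In ACs the senile-to-infant log2 fold change of NRG1 was -0.77 with a standard error of 0.27 (edgeR, adjusted p = 0.443), with 23.9 to 36.9 CPM in infant and 12.3 to 25.9 CPM in senile TS. In BCs and RGCs the log2 fold changes of NRG1 lay between -0.15 and 0.51 in both comparisons with infant TS, and none passed the test.

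NRG2 and NRG3 were highest in the neurons of the inner retina. NRG2 was 350 ± 40.6 CPM in RGCs and 335 ± 35.4 CPM in ACs, which did not differ beyond their spread (exact permutation p = 0.0897, adjusted p = 0.235), and 208 ± 22.9 CPM in BCs (n = 15 each). ACs exceeded BCs in 15 of 15 retinas by 0.69 ± 0.09 on the log2 scale (exact permutation within retinas, p = 6.1e-05, the smallest that 15 retinas allow; adjusted p = 0.00076). Astrocytes had 128 ± 50.8 CPM, HCs 118 ± 37.6 CPM, Müller cells 80.9 ± 43.3 CPM, microglia 51.5 ± 41.6 CPM, rods 35.0 ± 32.0 CPM and cones 26.01 ± 22.8 CPM. RGCs passed over ACs without LINC-FRMD8-1, a feature that held 12.1% to 21.2% of the UMIs of each library (0.11 on the log2 scale, exact permutation, adjusted p = 0.0198) and without Senile 3 (0.08, adjusted p = 0.044). No neighbours from astrocytes down to cones differed after adjustment. BCs were above astrocytes, the next class, in 14 of 14 retinas, by 0.83 ± 0.61 on the log2 scale (exact permutation, adjusted p = 0.00076), and BCs were not tested against the classes below.

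NRG3 was highest in RGCs at 466 ± 77.9 CPM, between 358 and 611 CPM. ACs had 317 ± 43.0 CPM and BCs 217 ± 39.7 CPM (n = 15 each). RGCs exceeded ACs in 15 of 15 retinas by 0.55 ± 0.11 on the log2 scale, and ACs exceeded BCs in 15 of 15 by 0.56 ± 0.21 (exact permutation within retinas, p = 6.1e-05 and adjusted p = 0.00076 for both). The order RGCs, ACs, BCs was therefore the same in each retina. Rods had 95.0 ± 56.3 CPM, and the means of Müller cells, microglia, astrocytes, HCs and cones ran from 67.0 down to 35.2 CPM with no neighbours apart. A numbered copy of the gene, NRG3li1, held another 4071 UMIs and was not added to these values.

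Neither gene passed the test between stages. In HCs the log2 fold change of NRG2 was 0.78 with a standard error of 0.21 from infant to mature and 0.77 with a standard error of 0.22 from infant to senile TS (edgeR, adjusted p = 0.393 and 0.432). Infant HCs had 49.3 to 96.3 CPM of NRG2, mature HCs 109 to 182 CPM and senile HCs 126 to 162 CPM, so that infant values lay below all others. In HCs only 0.0892% of 4486 features were called between mature and infant TS and 0.201% between senile and infant TS. In RGCs, NRG3 was 358 to 462 CPM in infant and 466 to 611 CPM in mature TS, and its log2 fold change of 0.31 with a standard error of 0.11 did not pass (edgeR, adjusted p = 0.625). From infant to senile TS the log2 fold change of NRG3 in RGCs was 0.007, and from mature to senile TS it was -0.30. The standard error was 0.11 for both, and neither passed. In ACs the log2 fold changes of NRG2 and NRG3 against infant TS lay between -0.02 and 0.14 with standard errors from 0.09 to 0.12.

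NRG4, a ligand of ERBB4, was the least abundant of the neuregulins in counts. Its highest class was cones at 8.72 ± 2.48 CPM, between 5.03 and 13.4 CPM. Cones exceeded HCs, the next class at 4.70 ± 5.39 CPM, in 11 of 15 retinas by 1.50 ± 1.66 on the log2 scale (exact permutation within retinas, p = 0.00476; adjusted p = 0.0193). The next class and the distance to it depended on single retinas: without Mature 4, Mature 5 or Senile 4 it was RGCs, 0.75 to 0.82 below cones, without Senile 1 Müller cells, 0.80 below, and without Infancy 2, Mature 2 or Senile 5 rods, 1.52 to 1.60 below, and cones remained highest and passed in each (exact permutation, highest adjusted p = 0.0352). The distance to HCs was 0.42 with a pseudocount of 10 CPM and 2.82 with 0.1 CPM, and with doublets kept RGCs followed, 0.71 below. Within version 7.0.1 cones lay 0.46 above rods (exact permutation p = 0.281). HCs had 0 UMIs of NRG4 in 6 of 15 retinas, and cones alone held 32.9% of its UMIs in the nuclei kept, with 16.4% of the UMIs of all genes there. Cones of infant, mature and senile TS had means of 9.12, 9.80 and 7.24 CPM of NRG4, and no stage passed the test.

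EGFR, the receptor of EGF and its relatives, was highest in Müller cells at 94.3 ± 31.2 CPM and in RGCs at 75.8 ± 27.6 CPM. These 2 classes did not differ beyond their spread (9 of 15 retinas, exact permutation p = 0.109, adjusted p = 0.255). Müller cells stood above RGCs when single nuclei were gated by markers (0.59 on the log2 scale, exact permutation, adjusted p = 0.00435) and at the doubled Leiden resolution (0.51, adjusted p = 0.0071), and RGCs lay above Müller cells, by 0.10, among the 7 retinas of version 6.1.2. ACs followed at 46.8 ± 14.6 CPM, below RGCs in 14 of 15 retinas by 0.67 ± 0.50 on the log2 scale (exact permutation within retinas, p = 0.000122; adjusted p = 0.00076). Microglia had 24.2 ± 26.1 CPM, and astrocytes, BCs, rods, HCs and cones had 1.93 to 5.95 CPM. EGFR was thus highest in Müller cells, RGCs and ACs, and low in photoreceptors and BCs.

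Within ACs the EGFR counts were concentrated. In each retina the AC cluster with the most EGFR had 218 to 520 CPM, whereas the median AC cluster had 5.99 to 24.2 CPM. That cluster made up a median of 4.97% of the AC nuclei and held a median of 33.3% of their EGFR UMIs. CLMP and EPHA3 were among its 10 leading genes in 15 of 15 retinas, and CNTNAP3, KCNIP1, NTN1 and RNF220 in 14 of 15. VIP, the transmitter of a known class of amacrine cells, was among them in 8 of 15. The cluster was picked by its EGFR, so these values are a description with no test.

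ERBB4, the receptor shared by all 4 neuregulins, was highest in BCs at 2779 ± 1793 CPM and in astrocytes at 2399 ± 584 CPM. BCs and astrocytes did not differ beyond their spread (8 of 14 retinas, exact permutation p = 0.608). The place of BCs rests on 1 cluster in each retina. A strict check of leading genes took its name away in 12 of 15 retinas. The naming reported here left markers that led clusters of several classes, CALB1 among them, out of that check. This rule was set after the clusters were seen. The strict check, an alternative that was not planned, goes without it. Under the strict check BCs had 767 ± 1046 CPM (n = 15), and astrocytes were highest, above ACs by 1.24 on the log2 scale (exact permutation, adjusted p = 0.000977). Astrocytes exceeded ACs, at 969 ± 212 CPM, in 14 of 14 retinas by 1.31 ± 0.32 on the log2 scale, and ACs exceeded Müller cells, at 319 ± 198 CPM, in 15 of 15 by 1.92 ± 1.26 (exact permutation within retinas, p = 0.000122 and 6.1e-05; adjusted p = 0.00076 for both). Microglia, HCs, rods and RGCs had 115 to 274 CPM with no neighbours apart, and cones had 60.7 ± 70.2 CPM. RGCs, rich in NRG2 and NRG3, were thus low in ERBB4. In astrocytes, 83.1% ± 8.7, 79.8% ± 4.8 and 82.4% ± 7.6 of the nuclei thinned to 1000 UMIs held a UMI of ERBB4 in infant, mature and senile TS, against 2.37% ± 2.12, 3.92% ± 3.34 and 4.33% ± 5.32 of the cones. BC markers in astrocytes summed to 3.75%, 4.19% and 8.67% of their level in BCs in the 3 stages, and the part of BC RNA in the ERBB4 of astrocytes was not tested.

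Most of the ERBB4 counted in BCs came from 1 cluster in each retina, the one left unnamed in 12 of 15 retinas by the strict check. Among the 8 to 17 BC clusters of a retina, the highest had 21800 to 33160 CPM of ERBB4, the second 1452 to 4432 CPM and the median cluster 33.0 to 580 CPM. The highest cluster thus had 7.27 to 15.4 times the level of the second. It made up 3.19% to 20.5% of the BC nuclei and held 71.5% to 92.9% of their ERBB4 UMIs. The level by which it was picked was 22110 to 29090 CPM in infant, 22040 to 33160 CPM in mature and 21800 to 33060 CPM in senile TS, with medians of 24660, 26790 and 31520 CPM, and the stages overlapped.

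**Figure D3:**
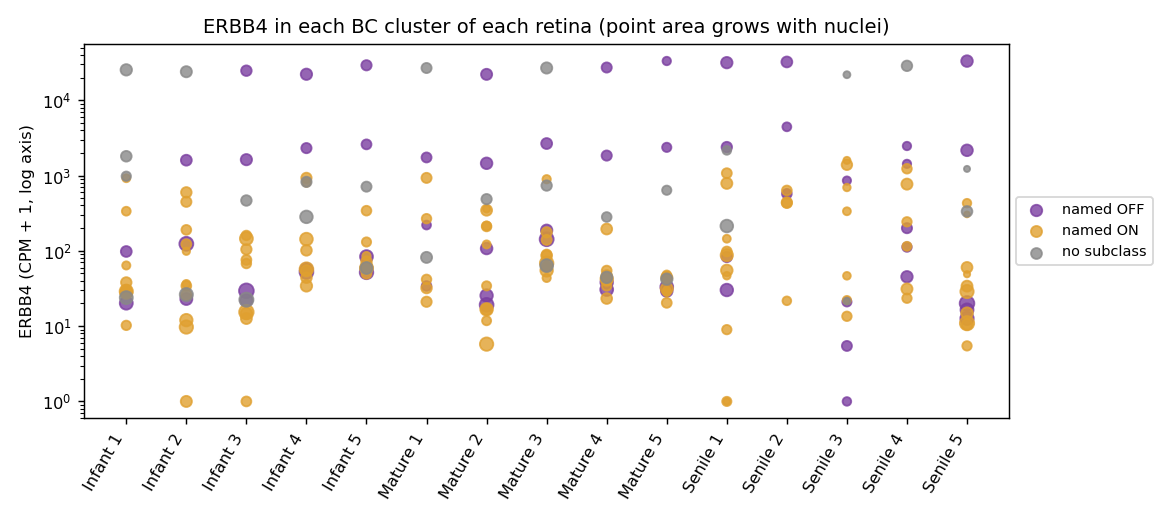
ERBB4 in every BC cluster with at least 10 nuclei, as CPM + 1 on a log axis, for the 15 retinas; point area grows with the number of nuclei and colour gives the subclass named from markers. In each retina 1 cluster lies between 21800 and 33160 CPM, and the next lies at 4432 CPM or lower.

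The leading genes of the cluster recurred in part from retina to retina. NTNG1, a guidance molecule of axons, CDH8, a cadherin, and KCNJ2, a potassium channel, were among its 10 leading genes in 15 of 15 retinas, SEMA3E and THSD4 in 14 of 15, and HTR2A and CALB1 in 12 of 15. CALB1 is a fixed marker of HCs, and no fixed marker of BCs was among the leading genes in any retina. It was named OFF in 9 of 15 retinas and no subclass in the other 6, and ON in none. Of the 6 markers of ON BCs, TRPM1 was 50.2 ± 23.8 CPM against 420 ± 101 CPM in the other BC clusters, and GRM6, the glutamate receptor of ON BCs, 4.19 ± 2.31 against 30.0 ± 7.5 CPM. ISL1 and PCP2 were also lower, at 30.9 ± 20.8 against 239 ± 70.6 CPM and 144 ± 58.7 against 353 ± 148 CPM. PRKCA was 230 ± 40.9 against 302 ± 54.9 CPM, and RGS11 went the other way, at 349 ± 145 against 295 ± 145 CPM. Of the 6 OFF markers, IRX6 was high, at 113 ± 36.6 against 5.29 ± 1.52 CPM, and FEZF2 was 68.1 ± 18.8 against 44.1 ± 13.4 CPM. VSX1 was 31.3 ± 18.4 against 54.7 ± 18.3 CPM and TACR3 ranged from 0 to 43.8 against 8.78 to 43.8 CPM, whereas GRIK1, counted as its copy GRIK1li1, was 4834 ± 1586 against 12580 ± 2513 CPM and NETO1 71.1 ± 37.9 against 486 ± 40.9 CPM (SD, n = 15). The cluster had been picked by its ERBB4, so these levels are a description with no test.

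Between stages, ERBB4 in BCs ranged from 1526 to 2886 CPM in infant, 1442 to 3376 CPM in mature and 1339 to 8656 CPM in senile TS. The high value was Senile 2, where the ERBB4-rich cluster made up 20.5% of the BC nuclei and 723 BCs were named, the fewest of any retina. The senile-to-infant log2 fold change was 0.82 with a standard error of 0.37 and did not pass the threshold (edgeR, adjusted p = 0.625). Without Senile 2 it was 0.33 (adjusted p = 0.927), and under the strict check of leading genes it was 2.47 with a standard error of 0.80 (adjusted p = 0.281). Under that check the ERBB4-rich cluster kept its name only in Mature 3, Senile 3 and Senile 4, and in no infant retina. Naming and level cannot be told apart in that value. In astrocytes the log2 fold changes against infant TS were 0.02 and -0.15 with standard errors of 0.23 and 0.21. In ACs they were 0.22 and 0.14 with standard errors of 0.16, and none of these changes passed the test.

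ERBB4 and all 4 neuregulins in Müller cells had lower means under Cell Ranger version 7.0.1 than under 6.1.2. The 2 versions also follow 2 separate blocks of sample identifiers. Median UMIs per barcode of a library were 1461 to 3068 under 6.1.2 and 2268 to 5611 under 7.0.1. Version, block and depth cannot be told apart in this comparison. Under version 6.1.2 Müller cells had 459 ± 191 CPM of ERBB4, 111 ± 47.2 CPM of NRG2 and 109 ± 61.6 CPM of NRG3 (SD, n = 7). NRG1 was 38.3 ± 25.8 CPM and NRG4 5.62 ± 2.29 CPM there. Under 7.0.1 Müller cells had 196 ± 99.7 CPM of ERBB4, 55.0 ± 13.5 CPM of NRG2, 30.3 ± 19.4 CPM of NRG3, 14.6 ± 12.8 CPM of NRG1 and 3.65 ± 1.60 CPM of NRG4 (n = 8), and their summed BC markers were 1587 ± 1511 CPM against 4849 ± 2734 CPM under 6.1.2. Their summed AC markers, 8 detected of 10 with GAD2 and SLC32A1 at 0, were 1921 ± 238 CPM under 7.0.1 and 2408 ± 401 CPM under 6.1.2. In infant, mature and senile Müller cells these markers had 52.3%, 48.2% and 48.4% of their level in ACs. Over all retinas Müller cells had 80.9 CPM of NRG2, 67.0 CPM of NRG3 and 319 CPM of ERBB4, against 335, 317 and 969 CPM in ACs. How far the AC markers are confined to ACs was not tested. In retinas with several Müller clusters, the one with the most ERBB4 held a median of 92.3% of the ERBB4 UMIs with a median of 13.5% of the nuclei. The part of BC and AC RNA in these values was not tested. EGFR went the other way in Müller cells, at 73.7 ± 16.3 CPM under 6.1.2 and 112 ± 30.5 CPM under 7.0.1.

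Subclasses of BCs and ACs differed in some members. ERBB4 passed in all 3 comparisons, EGFR in both of ACs, NRG3 in BCs and starburst ACs, and the other 3 neuregulins in starburst ACs, whereas ERBB3 passed in none. OFF and ON BCs were told apart by their markers, as were glycinergic and starburst ACs. No GABAergic subclass could be named, because GAD2 was at 0. Glycinergic and starburst ACs were therefore each compared with the ACs named neither, called other ACs. Of 35619 ACs, 4531 were named glycinergic, and any glycinergic ACs in clusters without that name lie among the other ACs. Of 21 member and subclass pairs, 10 passed the exact permutation test within retinas, and the same number passed when p-values were adjusted over all features with at least 1 CPM. Subclasses differ widely, and 30.5%, 26.5% and 48.0% of all features were called in the comparisons of OFF with ON BCs, glycinergic with other ACs and starburst with other ACs.

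**Figure D4:**
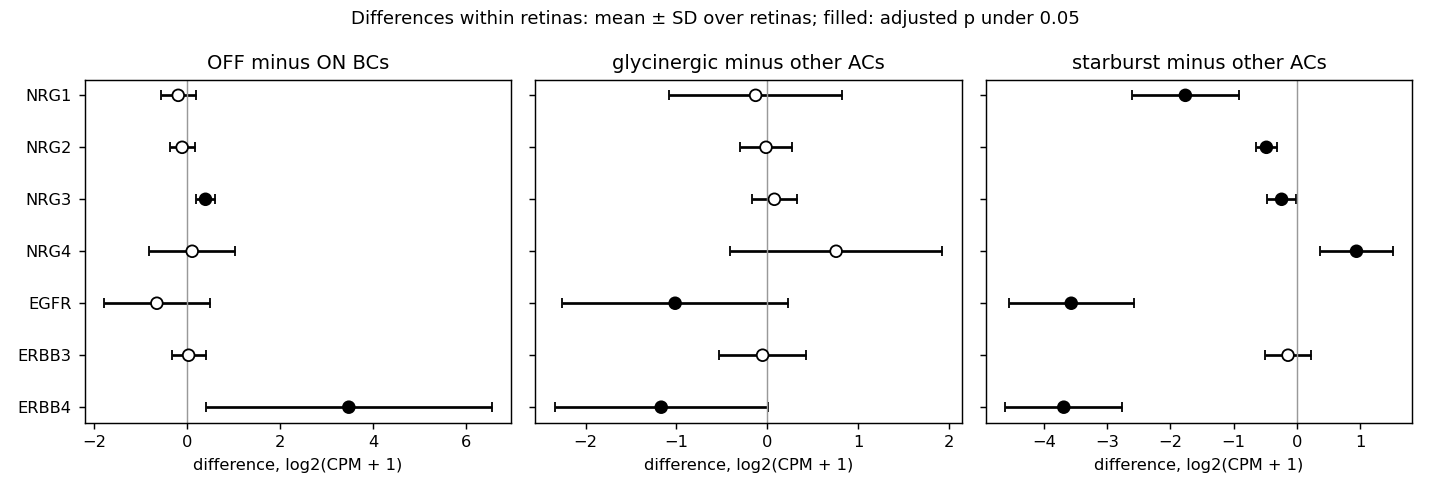
Difference of each member between subclasses within retinas on the log2(CPM + 1) scale, as the mean over 14 or 15 retinas with the SD; filled points had an adjusted p under 0.05. Starburst ACs lie below other ACs for EGFR, ERBB4, NRG1, NRG2 and NRG3 and above them for NRG4, and OFF BCs lie above ON BCs for ERBB4 and NRG3.

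Starburst ACs, the cholinergic interneurons of motion circuits, were low in both receptors. ERBB4 was 102 ± 60.0 CPM in starburst ACs against 1127 CPM in other ACs of the same retinas, lower in 14 of 14, a difference of -3.69 ± 0.93 on the log2 scale. EGFR was 4.31 ± 3.38 against 53.5 CPM, lower in 14 of 14 by a log2 difference of -3.57 ± 0.99. NRG1 was 8.09 ± 5.93 against 26.4 CPM, NRG2 245 ± 33.9 against 342 CPM and NRG3 268 ± 42.8 against 316 CPM, lower in 14, 14 and 12 of 14 retinas. NRG4 alone was higher, at 5.77 ± 2.38 against 2.42 CPM, in 12 of 14 retinas. Over all features these differences had adjusted p of 0.000603 for ERBB4, EGFR, NRG1 and NRG2, 0.00524 for NRG3 and 0.00181 for NRG4 (exact permutation within retinas).

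Glycinergic ACs had less ERBB4 than other ACs, at 603 ± 402 against 1099 ± 267 CPM, in 13 of 15 retinas, and less EGFR, at 30.6 ± 17.0 against 53.6 ± 18.4 CPM, in 13 of 15 (exact permutation within retinas, 0.0121 and 0.0108 when adjusted over all features). Neuregulins did not pass the test in this comparison. The log2 difference of NRG2 was -0.01 ± 0.28, that of NRG3 0.08 ± 0.25 and that of NRG1 -0.13 ± 0.95. NRG4 was 5.79 against 2.48 CPM, higher in 13 of 15 retinas by 0.76 ± 1.17 (exact permutation, adjusted p = 0.0557 over the 21 pairs and 0.0911 over all features).

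OFF BCs had 4239 ± 4634 CPM of ERBB4 and ON BCs 231 ± 192 CPM, with OFF above ON in 13 of 15 retinas (exact permutation within retinas, p = 0.00189 and 0.0089 when adjusted over all features). Without the ERBB4-rich cluster, OFF BCs had 45.8 to 1942 CPM and ON BCs 35.6 to 620 CPM, with OFF above ON in the same number of retinas. In 6 of 15 retinas that cluster had no subclass name, so leaving it out changed neither value. The cluster second in ERBB4, at 1452 to 4432 CPM, was named OFF in 13 of 15 retinas and was kept. Its part in the remaining difference was not tested. Under the strict check OFF BCs had 526 CPM and ON BCs 231 CPM, a log2 difference of 1.37 ± 1.65 against 3.48 ± 3.08 as first named (exact permutation, p = 0.00836). As first named, the exceptions were Infancy 1 and Senile 3, in both of which the ERBB4-rich cluster had no subclass name. NRG3 was higher in OFF than in ON BCs in 15 of 15 retinas, at 246 ± 45.0 against 188 ± 40.2 CPM, a log2 difference of 0.39 ± 0.20 (adjusted p over all features 0.000654). NRG1 and NRG2 did not pass, with log2 differences of -0.19 ± 0.37 and -0.11 ± 0.27.

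Over the 9 classes, 39 of 72 member and class pairs passed the filter on low counts. From infant to mature TS and from infant to senile TS 1 pair was called, NRG1 in cones in both, and the other 38 tested pairs did not pass. At an unadjusted p under 0.05 there were 4 of 39 pairs (10.3%) from infant to mature and 7 of 39 (17.9%) from infant to senile TS, beside 7.60% and 6.92% of all feature and class pairs (edgeR), and NRG1 in cones is among them. The share of all features called between senile and infant TS was 1.14% in BCs, 0.98% in ACs, 0.961% in RGCs, 0.703% in astrocytes, 0.645% in Müller cells, 0.507% in microglia and 0.375% in rods. Between mature and infant TS it was 0.632% in BCs, 0.481% in RGCs, 0.358% in Müller cells, 0.289% in ACs, 0.266% in astrocytes, 0.169% in microglia and 0.125% in rods. Between senile and mature TS 0 pairs were called by edgeR and 0 by DESeq2, with 6 pairs at an unadjusted p under 0.05 in edgeR, 15.4% of the 39 beside 5.71% of all feature and class pairs, and 0.0312% of features were called in rods and 0.0% in every other class. In sums over all nuclei of a retina, where fewer cells of a type and less RNA per cell cannot be told apart, 0 members passed by edgeR between senile and infant TS, where 0.989% of all features were called, and 0 between mature and infant TS, where 0.433% were. From infant to mature TS the log2 fold change of NRG1 was 0.59 (edgeR, unadjusted p = 0.0401, adjusted p = 0.589). NRG1 there was 47.7 to 66.2 CPM in infant, 29.8 to 108 CPM in mature and 57.9 to 82.8 CPM in senile TS.

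The rest of the pathway was followed with 63 fixed genes, of which 59 were in the annotation. They comprise other ligands such as EGF, TGFA and BTC, the proteases that shed them, adaptors and kinases downstream, and inhibitors and scaffolds. In the 9 classes 16 to 48 of these genes were tested, 303 gene and class pairs in all. By edgeR, 0 pairs were called between senile and infant TS, with 9 higher and 7 lower at an unadjusted p under 0.05, and 0 between mature and infant TS, with 14 higher and 1 lower. These 16 and 15 pairs were 5.28% and 4.95% of the list, beside 6.92% and 7.60% of all 91002 feature and class pairs tested. Between senile and mature TS edgeR also called 0, with 3 higher and 16 lower at an unadjusted p under 0.05, 6.27% of the list beside 5.71% of all pairs. DESeq2 called 1 pair between senile and infant TS, TGFA in Müller cells, a ligand of EGFR, with a log2 fold change of 1.81 (DESeq2, adjusted p = 0.0218). It called the same pair between mature and infant TS, at 1.70, and PIK3CA in ACs between senile and mature TS, at -0.38. The share of all features called by DESeq2 is not given here, so these calls cannot be set against it. For TGFA in Müller cells edgeR gave 1.77 and 1.67 against infant TS (adjusted p = 0.136 and 0.182). It was called by edgeR at the doubled Leiden resolution between mature and infant TS (2.16, adjusted p = 0.0312) and without Senile 1 between senile and infant TS (2.02, adjusted p = 0.0321). The median log2 fold change of the list between senile and infant TS ran from -0.24 in microglia to 0.16 in HCs. In cones, where NRG1 rose, the list's median was 0.03 and that of all features -0.02.

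The features most like each member over the 133 sums of a retina and class were found among 8803 features with a plain symbol and a mean of at least 5 CPM. The sums of a retina share its library, so the correlations are a description. ERBB4 was closest to PTPRZ1, a phosphatase of glia (Pearson r = 0.839), and to PRR16 (0.765). NRG1 was closest to NEGR1 (0.823) and LHFPL3 (0.786), NRG2 to WNK2 (0.787) among the features reported, and NRG3 to ANK1 (0.811) and NDST4 (0.805). EGFR was closest to TNFRSF21 (0.78) and SRGAP1 (0.767), ERBB3 to GABRP (0.676) and PAX2 (0.669), a marker of astrocytes that had helped to name them. NRG4 had no close match, with CIART at 0.502 and NDUFAF1 at 0.486.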

How the data were processed

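The authors deposited 1 matrix of raw UMI counts per retina, not normalized, made with Cell Ranger. Headers name version 6.1.2 for 7 libraries, for which the submitters' processing notes name 5.0.1, and 7.0.1 for the other 8. Whether intronic reads were counted is not given in the sources used here. Members and lists were chosen with earlier results of these data known. Kept barcodes had between 200 and 6000 detected genes and less than 5% mitochondrial UMIs, and simulated-doublet neighbours were called within each retina. Each retina was clustered alone (2000 variable genes, 30 components, 20 neighbours, Leiden resolution 2, igraph 0.11.9), and clusters were named from fixed markers. Markers that led clusters of several classes were left out of the check of leading genes, a threshold set after the clusters were seen; a strict check was added as an alternative. No GABAergic AC subclass could be named (GAD2 was at 0), so ACs named neither glycinergic nor starburst were the reference.

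UMIs were summed per retina and class with at least 10 nuclei. Stages were compared with edgeR 4.0.16 (TMM, filterByExpr, quasi-likelihood, 1 fit over 3 stages; DESeq2 1.42.0 as an alternative), tested on simulated data, with Benjamini-Hochberg adjustment over all features tested in a class. Sex is a covariate in the study's model but is not given in the labels and was left out. Classes and subclasses of the same retina were set against each other on the log2(CPM + 1) scale, with an exact 2-sided permutation of signs. Classes were ordered by their mean level in the same retinas before neighbours were tested, so these pairs were picked from the values tested. The members were named wherever they passed the filter, pathway genes where called, and for each member the 2 most correlated features, 1 of which is not reported here. Replicate numbers were not taken to pair samples, because no label pairs them. Of the same-numbered pairs of deviations, 13 of 15 correlated above 0.1, and 4 of 15 retinas correlated best with their own number. The highest correlation between stages, 0.751, was that of Infancy 4 with Senile 5, which differ in number and share a Cell Ranger version. Per the study, each retina came from a separate TS donor, which the labels do not state; a fit with the Cell Ranger version as a term was an alternative. The floor of 3 counts covers counting error only, whereas the SDs and standard errors include variation between retinas.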

Additional observations from a re-analysis of the deposited data

Results flagged for a closer look

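The change of NRG1 from infant TS differed between cones and 5 of the 8 other classes. On the log2(CPM + 1) scale the mature-to-infant change in cones exceeded that in rods by 1.66, in BCs by 2.20, in RGCs by 2.38, in Müller cells by 2.71 and in ACs by 2.73. The senile-to-infant change in cones exceeded that in rods by 2.14, in BCs by 2.27, in RGCs by 2.52, in ACs by 3.15 and in Müller cells by 4.21. Each had an exact permutation p of 0.00794. The 4.21 takes in a fall of 1.72 in Müller cells that rests on low counts. For that fall edgeR gave a log2 fold change of -0.37 with a standard error of 0.82. In HCs the values against infant TS were 1.18 and 2.29, and the differences from cones of 1.42 and 0.20 did not pass (exact permutation p = 0.111 and 0.81), nor did those from astrocytes and microglia. All 16 comparisons passed with a pseudocount of 10 CPM, a setting chosen after seeing the data. That pseudocount is close to the level of NRG1 in HCs and lessens their change more than that of cones, so it cannot decide this. Stage and source cannot be told apart in the senile animals.

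Single retinas stood apart from the other retinas of their stage in 9 of 117 groups of 4 or 5 retinas, where chance gives about 1 in 20. ERBB4 in rods was 348 CPM in Infancy 2 against 0 to 58.1 CPM in the other infant retinas, and 477 CPM in Senile 4 against 64.9 to 120 CPM. ERBB4 in HCs was 375 CPM in Infancy 1 against 11.6 to 112 CPM. NRG3 in BCs was 137 CPM in Mature 4 against 242 to 272 CPM, and NRG2 in astrocytes was 86.6 CPM in Mature 3 against 143 to 150 CPM. EGFR in RGCs was 40.0 CPM in Senile 4 against 64.1 to 73.0 CPM. In Müller cells of Senile 1, NRG2 was 139 CPM against 35.3 to 43.2 CPM and NRG3 was 129 CPM against 11.8 to 30.5 CPM. NRG3 in astrocytes was 113 CPM in Senile 2 against 20.7 to 47.2 CPM.

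Features named after the members but kept out of the comparisons held UMIs above the limit of 3 counts. The numbered copy NRG3li1 had 4071 UMIs, 26 antisense features had 10472 UMIs together, and 34 LINC features had 8722 UMIs together. ERBB4-AS-1 had 5397 of these, and ERBB3-AS-2 had 1331, more than the 103 of ERBB3 itself. Positions were not used here, and whether these features share reads with the members was not tested.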

How the results depend on the processing

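NRG1 in cones kept its direction and its call in all 26 alternatives of each comparison, with log2 fold changes of 2.36 to 2.81 (mature against infant) and 2.10 to 2.58 (senile against infant). With no filter on low counts, 2 member and class pairs were called in each of these comparisons, with NRG1 in rods (mature against infant, adjusted p = 0.0365) or ERBB4 in microglia (senile against infant, adjusted p = 0.034) beside NRG1 in cones. The share of all features called without that filter is not given here, so the added calls cannot be set against it. Leaving out single retinas gave 1 to 2 called pairs from infant to mature TS, 2 without Infancy 5, and 1 from infant to senile TS. The pathway list had 1 call between senile and infant TS with DESeq2 and 0 to 1 when single retinas were left out, 1 without Senile 1, TGFA in Müller cells in both. The number of members whose highest class stood above the next was 4, 3 to 5 without single retinas, and 0 among the 7 retinas of version 6.1.2 and 0 among the 8 of 7.0.1, where the smallest exact p is 0.0156 or 0.00781 and lost calls say nothing about stability. NRG1 in rods stood 1.34 and 1.48 (log2) above the next class there, beside 1.48 as reported, and NRG3 in RGCs 0.55 and 0.55, beside 0.55. ERBB3 in astrocytes stood 1.86 and 1.44 above the next class, beside 1.45. The distance of NRG4 in cones was smaller there, at 0.64 above Müller cells and 0.46 above rods, beside 1.50 above HCs. The share of all features whose highest class stood above the next is not given here, so the 4 members cannot be set against it. The number of subclass pairs called was 10, 17 when single nuclei were gated by markers, 0 within version 6.1.2 and 10 to 12 without single retinas. The share of all features called between subclasses of gated nuclei is not given here, so the 17 cannot be set against it. With the 7 retinas of version 6.1.2 the smallest exact p is again 0.0156, so the subclass calls lost there say nothing about stability. The number of classes and stages in which NRG1 changed more in cones was 10, 16 with a pseudocount of 10 CPM, 15 with doublets kept, 13 in gated nuclei and 9 under the strict check of leading genes, settings chosen after seeing the data for this count, and 10 to 12 without single retinas. The replicate block left 1 called pair from infant to mature TS (adjusted p = 0.000133) and from infant to senile TS (adjusted p = 6.83e-05), 0 pairs between senile and mature TS and 0 in the pathway list. The order of uncalled highest classes turned in places: ERBB4 was 0.10 higher (log2) in BCs than in astrocytes as reported, but 0.06 lower without LINC-FRMD8-1, 0.03 lower without Senile 2, 0.23 lower within version 7.0.1 and 0.47 lower in gated nuclei (exact permutation, adjusted p = 0.0563), and NRG2 was 0.04 higher in ACs than in RGCs in gated nuclei. In HCs, astrocytes, rods and microglia few UMIs per retina limit what could be detected.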
